A study of Mus musculus with 6 samples.

Results

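The miRNAs described here are those best known from tissues other than brain: miR-192-5p, miR-194-5p and miR-215-5p of gut, liver and kidney, miR-122-5p of liver, miR-203-3p and miR-205-5p of skin and other epithelia, and miR-375-3p of endocrine cells. They were chosen by name, as the guide arm of each hairpin, and all 7 were listed among the 1364 miRNAs counted. A guide arm is the strand of the hairpin that is mostly loaded into Argonaute, and the opposite arm is called the passenger. The small RNA libraries came from the nucleus accumbens (NAc), a reward centre of the ventral forebrain, of adult male C57BL/6N mice of 7 to 8 weeks. The morphine group was conditioned for 6 days with 10 mg/kg morphine in a place preference (CPP) procedure and the saline group with saline, and tissue was taken 0.5 h after the test on day 7. There were 3 libraries per group, and the sources give either 1 or 2 mice per library. Where libraries do not come from separate mice, the p-values below measure only the spread between these samples.

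Total counts ran from 4183333 to 9842050 per library, so that 3 counts corresponded to between 0.315 and 0.549 CPM (the count relative to the TMM-scaled total of its library). The neuronal miR-128-3p, at 55107 to 104566 CPM, and miR-124-3p, at 1324 to 7795 CPM, were abundant in every library of this brain tissue. Saline replicate 2 stood apart from its group. Its Spearman correlation with the other saline libraries was at most 0.874, against at least 0.907 with each morphine library, so results are also given without it. In bulk tissue, fewer cells of a type and less RNA per cell cannot be told apart.

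miRNAs guide Argonaute to messenger RNAs mainly through the seed, bases 2 to 8 of the mature strand, and so miRNAs with the same seed have largely shared targets. miR-122 is the dominant miRNA of hepatocytes. The clusters that hold miR-192, miR-194 and miR-215 are expressed under hepatocyte nuclear factors in gut, liver and kidney. miR-203 accompanies the differentiation of epidermal keratinocytes, miR-205 marks basal epithelial cells, and miR-375 is a main miRNA of pancreatic islets that limits insulin secretion and is also found in other neuroendocrine cells.

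Mature sequences were taken from RefSeq (GRCm38.p6) for 5 of the 7, and are shown because their likeness and their loci decide which counts can be read separately. Capitals mark the seed.
miR-192-5p: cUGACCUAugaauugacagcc
miR-215-5p: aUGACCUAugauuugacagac
miR-194-5p: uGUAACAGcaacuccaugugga
miR-203-3p: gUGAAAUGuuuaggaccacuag
miR-205-5p: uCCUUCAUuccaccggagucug

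miR-192-5p and miR-215-5p had the same seed and were identical at 18 of 21 bases. Counted from 1 at the 5′ end of miR-192-5p, they differed by C1A, A12U and C20A. No other mature miRNA of the RefSeq table had their seed, and none had that of miR-194-5p, miR-203-3p or miR-205-5p. The hairpins of miR-194 lie in both clusters and give an identical guide arm. On chromosome 19 of GRCm38 (GENCODE vM21), Mir194-2 spans 6264643 to 6264728 and Mir192 spans 6264844 to 6264932, both on the plus strand, between genes and 115 bases apart. On chromosome 1, Mir194-1 spans 185313319 to 185313385 and Mir215 spans 185313581 to 185313692, also on the plus strand, 195 bases apart in introns of Iars2 on the opposite strand. The 2010103J01Rik transcript runs along them, and Mir215 overlaps an exon of it.

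The levels of the 7 miRNAs spanned from 0.147 to 736 CPM after TMM scaling. miR-192-5p was the most abundant, at ranks 103 to 171 of the 1364 miRNAs over the libraries, and miR-205-5p the least, at ranks 575 to 855. The order of the medians was miR-192-5p (228 CPM), miR-194-5p (131 CPM), miR-203-3p (55.6 CPM), miR-375-3p (24.9 CPM), miR-122-5p (6.85 CPM), miR-215-5p (1.73 CPM) and miR-205-5p (0.628 CPM). Of the neighbours in this order, miR-192-5p was above miR-194-5p in all 6 libraries, as were miR-203-3p above miR-375-3p and miR-122-5p above miR-215-5p. The order of the other neighbours was not fixed. miR-194-5p was above miR-203-3p in 4 of 6 libraries, miR-375-3p above miR-122-5p in 5 of 6, and miR-215-5p above miR-205-5p in 4 of 6. Together the 7 miRNAs came to 275, 1054 and 388 CPM in saline replicates 1, 2 and 3, and to 608, 425 and 477 CPM in morphine replicates 1, 2 and 3.

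**Figure D1:**
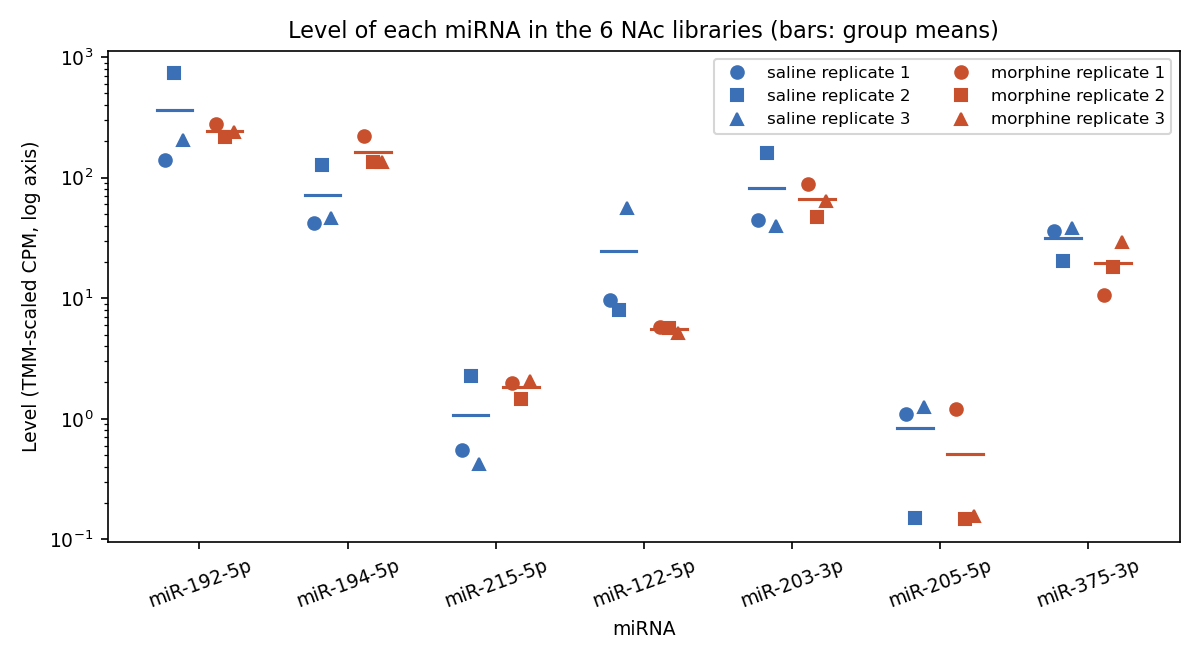
Level of each miRNA in each library, as CPM after TMM scaling on a log axis, with circles, squares and triangles for replicates 1, 2 and 3 and a bar at each group mean. Saline replicate 2 is the highest library for miR-192-5p, miR-215-5p and miR-203-3p, saline replicate 3 stands apart at 56.4 CPM for miR-122-5p, and the morphine libraries of miR-194-5p lie above the saline libraries.

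The groups were compared with edgeR's quasi-likelihood test. A DEmiRNA had to change by 0.58 or more on the log2 scale, in either direction, with an unadjusted p no higher than 0.05, and 19.4% of all 1364 miRNAs were called. Of the 7, 2 were called. miR-194-5p was higher in the morphine group and miR-122-5p was lower, while each direction alone held 9.68% of all miRNAs. With Benjamini-Hochberg adjustment over all miRNAs, none of the 7 had an adjusted p under 0.05, against 5.21% of all miRNAs. An unadjusted p no higher than 0.05 was found by edgeR for 2 of the 7, and DESeq2 gave an adjusted p under 0.05 for 1 of the 7, miR-122-5p, and for 9.45% of the miRNAs it adjusted. The groups did not overlap for 2 of the 7, miR-194-5p and miR-122-5p, and for 22.1% of all miRNAs. Over the 7, the log2 fold change had a median of -0.56, and over all miRNAs one of -0.15. Scaling by library totals moved the median of all miRNAs to -0.40 and upper quartile scaling moved it to -0.35. No scaling tried turned the direction of any of the 7.

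miR-194-5p, which is made from both clusters, was higher after morphine, while miR-192-5p, made beside it on chromosome 19, did not differ beyond the replicate spread. miR-194-5p was at 41.9, 127 and 46.0 CPM in saline replicates 1, 2 and 3, and at 221, 135.7 and 135.8 CPM in morphine replicates 1, 2 and 3. All morphine libraries were above all saline libraries, though saline replicate 2 came close to morphine replicates 2 and 3. The means were 71.6 ± 47.8 CPM (SD, n = 3) and 164 ± 49.2 CPM (SD, n = 3). This gave a log2 fold change of 1.20 (SE 0.52, 95% interval 0.11 to 2.28), which is 2.29-fold, with an unadjusted p of 0.0340 and an adjusted p of 0.209 in the edgeR fit. The call was lost when saline replicate 1, saline replicate 3, morphine replicate 1 or morphine replicate 3 was left out, with log2 fold changes of 1.02, 1.05, 1.04 and 1.32. Without saline replicate 2 it was 1.90 (SE 0.30) at an adjusted p of 4.78e-08 by edgeR, and over all the alternatives the adjusted p ran up to 0.542.

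miR-192-5p was at 140.4, 736 and 206 CPM in the saline libraries and at 279, 217 and 239.8 CPM in the morphine libraries. Saline replicate 2 was 2.64 times the next library, and the other saline libraries were both below the morphine libraries. The means were 361 ± 327 CPM (SD, n = 3) and 245 ± 31.5 CPM (SD, n = 3). The log2 fold change was -0.56 (SE 0.55, 95% interval -1.69 to 0.57), which did not pass the test (adjusted p = 0.584 in the edgeR fit). Leaving out saline replicate 2 turned it to 0.50 (SE 0.28).

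miR-215-5p, which has the seed of miR-192-5p, was near the limit of detection. Its counts were 3, 15 and 4 in saline replicates 1, 2 and 3, and 18, 10 and 13 in morphine replicates 1, 2 and 3. The exact Poisson interval of the lowest of these counts was 0.619 to 8.77, and that of the highest 10.7 to 28.4. Saline replicate 2 lay within the range of the morphine counts, and the other saline libraries lay below it. As CPM, which allows for depth, the libraries were at 0.549, 2.25 and 0.420 in the saline group. The morphine libraries were at 1.99, 1.47 and 2.04 CPM, so that saline replicate 2 was the highest of all. Levels were 1.07 ± 1.02 CPM (SD, n = 3) and 1.83 ± 0.319 CPM (SD, n = 3). The log2 fold change, 0.78 (SE 0.82, 95% interval -0.91 to 2.47, adjusted p = 0.584 by edgeR), did not pass the test. With saline replicate 2 left out it was 1.92 (SE 0.82) and met the criteria, at an adjusted p of 0.0502 by edgeR.

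Ratios of counts within a library do not depend on scaling between libraries. There were 0.299, 0.172 and 0.224 counts of miR-194-5p per count of miR-192-5p in saline replicates 1, 2 and 3, and 0.792, 0.627 and 0.567 in morphine replicates 1, 2 and 3. Every morphine library was above every saline library, saline replicate 2 included. On the log2 scale the ratio was -2.15 ± 0.398 (SD, n = 3) and -0.61 ± 0.248 (SD, n = 3), a difference of 1.54 (exact two-sided permutation test, p = 0.1, the smallest that 3 libraries against 3 allow). The difference was 1.34 without saline replicate 2 and stayed between 1.34 and 1.74 when each library was left out in turn. Since both loci give the same miR-194-5p, these counts do not show what each cluster contributed to it.

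The ratio of miR-215-5p to miR-192-5p was also higher in every morphine library. Its log2 value was -7.78, -8.31 and -8.77 in saline replicates 1, 2 and 3, and -7.09, -7.14 and -6.82 after morphine. The difference was 1.27 (exact two-sided permutation test, p = 0.1), and 1.03 to 1.52 with each library left out in turn. In all, 7 ratios between these miRNAs and their hairpin products were computed, and with Benjamini-Hochberg adjustment over the 7 the p of each of these was 0.233. The ratio of miR-122-5p to miR-192-5p, which was not planned, differed by -1.36 on the log2 scale, within its spread (exact two-sided permutation test, p = 0.4). The seed that miR-192-5p and miR-215-5p have in common was carried almost entirely by miR-192-5p, with at most 18 counts of miR-215-5p in a library against at least 767 of miR-192-5p. Reads that could not be placed on one or the other may have been split or shared by the counting, which is not described in the sources used here.

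**Figure D2:**
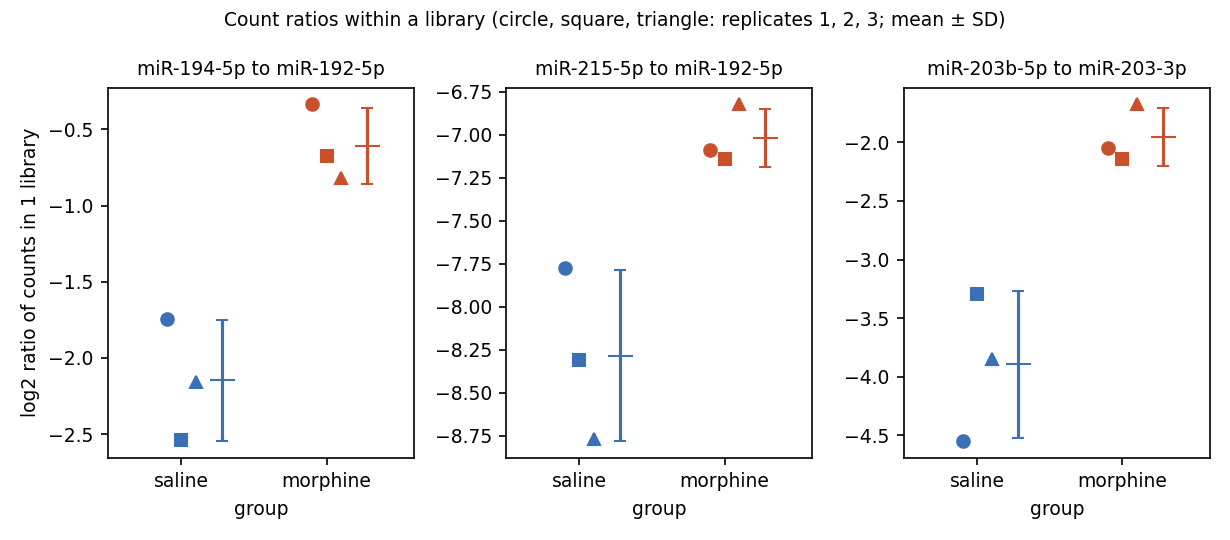
log2 ratio of counts within each library for miR-194-5p to miR-192-5p, miR-215-5p to miR-192-5p and miR-203b-5p to miR-203-3p, with circles, squares and triangles for replicates 1, 2 and 3 and the mean ± SD beside them. In each panel the 3 morphine libraries lie above the 3 saline libraries, and the vertical axes differ between panels.

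Passenger arms of the clusters were rare. For miR-194-2-3p, the passenger of the chromosome 19 hairpin, 7, 3 and 21 reads were counted in the saline group and 5, 12 and 7 in the morphine group. These overlapped, and the log2 fold change was -0.24 (SE 0.85, adjusted p = 0.876 by edgeR). miR-192-3p was at 0 in each saline library and at 1, 0 and 2 counts after morphine, and miR-215-3p had 2 counts in morphine replicate 3 and 0 elsewhere, too few for a fold change. Of 10 other products of the 7 hairpin families looked for, 7 were listed, and the passengers of Mir194-1, Mir205 and Mir375 were not among them.

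miR-122-5p, the hepatocyte miRNA, was lower in the morphine group, but its size rested on a single saline library. Reads counted were 53, 53 and 538 in saline replicates 1, 2 and 3, and 52, 39 and 33 in morphine replicates 1, 2 and 3. As CPM these were 9.70, 7.95 and 56.4 against 5.75, 5.71 and 5.18. The groups did not overlap, and saline replicate 3 was 5.82 times the next library. The morphine libraries were close together, with a coefficient of variation of 5.75% against 111% in the saline group. Means were 24.7 ± 27.5 CPM (SD, n = 3) and 5.55 ± 0.319 CPM (SD, n = 3). The log2 fold change was -2.15 (SE 0.67, 95% interval -3.54 to -0.77), with an unadjusted p of 0.00494 and an adjusted p of 0.0620 by edgeR. Without saline replicate 3 it was -0.59 (SE 0.72) and not called, at an adjusted p of 0.715. It was not called without morphine replicate 1 either (-2.07), while without saline replicate 2 the adjusted p by edgeR was 1.11e-09. That last fit still held saline replicate 3, with the saline group at 9.70 and 56.4 CPM. In the same fit, 29.1% of all miRNAs had an adjusted p under 0.05.

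Counts of miR-122-5p were identical in all 6 libraries to those listed for miR-122b-3p, a miRNA annotated on the opposite strand of the same locus, so that the strands cannot be told apart in this table and the value for miR-122-5p is uncertain to that extent. Of the passenger miR-122-3p, 0, 1 and 1 reads were counted in saline replicates 1, 2 and 3 and 0 in each morphine library. The hairpin gene Mir122 spans 65248861 to 65248926 of chromosome 18 (GRCm38, plus strand), in an exon of the lincRNA AC157910.3.

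The other miRNAs known from liver were set beside miR-122-5p in saline replicate 3, the library where it was highest. miR-192-5p and miR-194-5p, both made by liver, lay there between the levels of saline replicates 1 and 2. miR-483-3p, a miRNA of the Igf2 locus, was also highest of the saline group in saline replicate 3, with 0, 1 and 11 counts in saline replicates 1, 2 and 3 and with 5, 1 and 9 in the morphine group. miR-802-5p, a miRNA of liver and pancreas, had 0 counts in saline replicate 3 and at most 3 in any library. The whole list of pancreas and liver miRNAs beyond the 7 had 7 of its 8 members listed, of which miR-148a-3p was called higher and none lower. Most of the list was not highest in saline replicate 3. Within the saline group, miR-216a-5p, miR-216b-5p and miR-217-5p were highest in saline replicate 2, at 4.95, 9.90 and 51.0 CPM. miR-148a-3p was highest there too and lowest in saline replicate 3 (2246 CPM). Counts of miR-483-5p were 2, 0 and 2 in saline replicates 1, 2 and 3. The summed level of the list was 2264 to 14290 CPM in the saline group and 90036 to 121877 CPM in the morphine group, nearly all of it miR-148a-3p. The blood list had 5 of its 6 members listed, with miR-451a of red cells called higher and none lower. The median log2 fold change of the list was -0.20. miR-144-3p (-1.31), miR-144-5p (-1.16) and miR-486a-5p (-0.20) were below 0, and miR-223-3p (0.41) was above. miR-451a alone was at 60.2 to 163 CPM in the saline group and at 218 to 423 CPM in the morphine group. The summed blood level was 257 CPM in saline replicate 3, within the saline range of 217 to 313 CPM and below the morphine range of 361 to 577 CPM. The part of blood in the level of miR-122-5p was not tested.

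miR-203-3p, the keratinocyte miRNA, did not differ beyond the replicate spread. Its level was 44.8, 161 and 39.9 CPM in saline replicates 1, 2 and 3, and 88.6, 46.7 and 64.4 CPM after morphine. Saline replicate 2 was the highest library and the other saline libraries were the lowest, so that the groups overlapped through that library. Means were 81.8 ± 68.3 CPM (SD, n = 3) and 66.6 ± 21.0 CPM (SD, n = 3). Morphine minus saline was -0.30 on the log2 scale (SE 0.56, 95% interval -1.46 to 0.87, adjusted p = 0.785 by edgeR). Leaving out saline replicate 2 turned the log2 fold change to 0.65 (SE 0.33, adjusted p = 0.142 by edgeR). The log2 ratio of miR-203-3p to miR-192-5p differed by 0.15 between the groups (exact two-sided permutation test, p = 0.8; this ratio was chosen after the values were seen).

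The miR-203 locus also has annotated miRNAs on both strands, and the arms are printed to show how they face each other. Mir203 spans 112130880 to 112130955 of chromosome 12 (GRCm38, plus strand), between genes. Capitals mark the 20 bases over which miR-203-3p and miR-203b-5p, and likewise miR-203-5p and miR-203b-3p, are reverse complements of each other.
miR-203-3p: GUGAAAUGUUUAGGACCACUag
miR-203b-5p: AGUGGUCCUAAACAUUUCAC
miR-203-5p: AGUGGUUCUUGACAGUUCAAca
miR-203b-3p: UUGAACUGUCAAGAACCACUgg

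The passenger miR-203-5p and the opposite miR-203b-3p had identical counts in every library, with 4, 4 and 1 in the saline group and 9, 0 and 0 in the morphine group. miR-203-3p and the opposite miR-203b-5p did not. Counts of miR-203b-5p were 10, 109 and 26 in saline replicates 1, 2 and 3, and 193, 72 and 128 in morphine replicates 1, 2 and 3. Its level was 1.83, 16.3 and 2.73 CPM against 21.4, 10.5 and 20.1 CPM, and overlapped between the groups at saline replicate 2. Its log2 fold change was 1.31 (SE 0.70, 95% interval -0.13 to 2.76, adjusted p = 0.330 by edgeR). Set against miR-203-3p in the same library, miR-203b-5p came to 4.28%, 10.2% and 6.96% in the saline libraries and to 24.1%, 22.7% and 31.3% in the morphine libraries, without overlap. The log2 difference of this ratio was 1.94 (exact two-sided permutation test, p = 0.1, adjusted p = 0.233 over the 7 ratios), and the ratio was chosen after its values were seen. How the counting assigned reads of opposite strands was not tested.

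miR-205-5p, the miRNA of basal epithelial cells, was close to absent. Only 6, 1 and 12 reads were counted in saline replicates 1, 2 and 3, and 11, 1 and 1 in morphine replicates 1, 2 and 3. In each group some libraries were at 1 count, whose exact Poisson interval was 0.0253 to 5.57, and others lay above it, the highest with an interval of 6.20 to 21.0. The groups overlapped throughout. The log2 fold change was -0.65 (SE 1.11, 95% interval -2.95 to 1.64, adjusted p = 0.743 by edgeR), an interval that included changes of either sign, and without morphine replicate 1 it was -2.26 (SE 1.46). Mir205 spans 193507463 to 193507530 of chromosome 1 (minus strand), in an exon of the lincRNA 4631405K08Rik.

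Other epithelial miRNAs were set beside miR-203-3p and miR-205-5p. All 9 of the epithelial list were listed. Of these, 5 were called higher in the morphine group, against 9.68% of all miRNAs, and none lower. None had an adjusted p under 0.05 by edgeR. Those called were miR-200a-3p, miR-200b-3p, miR-429-3p, miR-96-5p and miR-182-5p, each highest in morphine replicate 1. Of those not called, miR-183-5p (1.26) and miR-200c-3p (0.35) were above 0 on the log2 scale. miR-141-3p (-0.45) and miR-31-5p (-0.15) were below. The summed level of the 9 was 110, 141 and 49.6 CPM in the saline group, against 596, 95.8 and 156 CPM after morphine. Morphine replicate 1 held the highest sum, and none of the 9 had groups that did not overlap. miR-205-5p had 11 of its counts in that library, where miR-203-3p was at 88.6 CPM. Whether epithelial tissue contributed to these levels was not tested.

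miR-375-3p, the islet miRNA, was at 36.4, 20.4 and 37.9 CPM in the saline libraries and at 10.7, 18.3 and 29.4 CPM in the morphine libraries. Saline replicates 1 and 3 were above every morphine library, and saline replicate 2 lay among them. Means were 31.6 ± 9.70 CPM (SD, n = 3) and 19.5 ± 9.37 CPM (SD, n = 3). The log2 fold change was -0.70 (SE 0.55, 95% interval -1.84 to 0.44, adjusted p = 0.522 by edgeR) and did not pass the test. It was -0.94 (SE 0.37, adjusted p = 0.0359 by edgeR) without saline replicate 2, and -0.32 without morphine replicate 1. Mir375 spans 74900658 to 74900721 of chromosome 1 (minus strand), between genes.

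**Figure D3:**
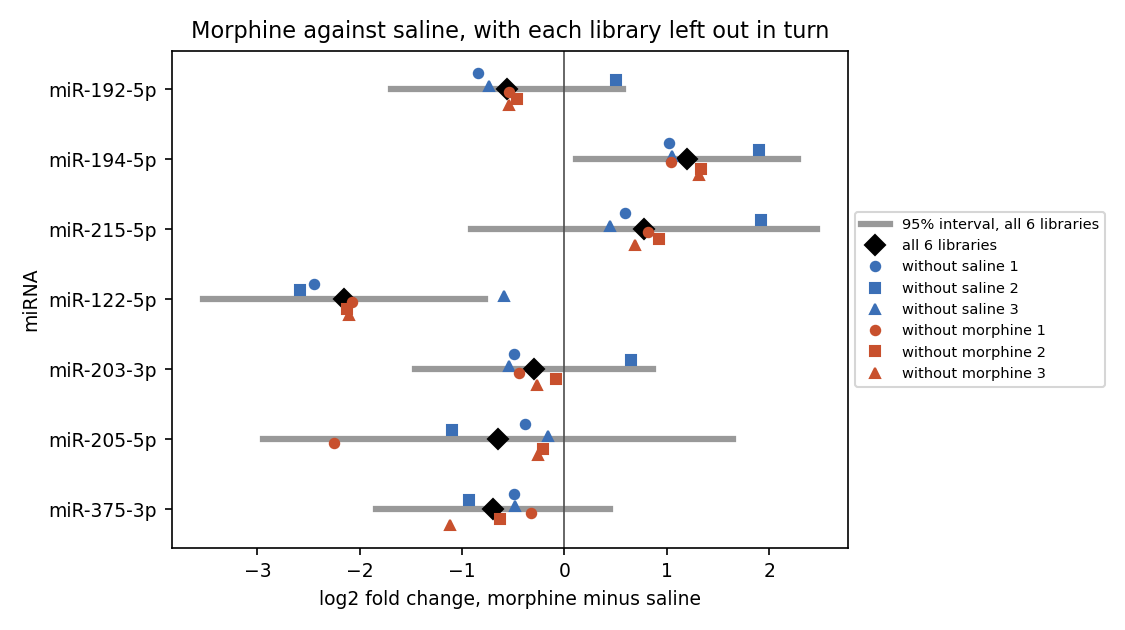
log2 fold change of morphine minus saline for each miRNA, with the value from all 6 libraries as a diamond on its 95% interval and the values with each library left out as smaller points. Leaving out saline replicate 2 moves miR-192-5p and miR-203-3p across 0, to 0.50 and 0.65, and leaving out saline replicate 3 moves miR-122-5p from -2.15 to -0.59.

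Leaving out saline replicate 2 raised the counts over the whole group of miRNAs. Then 4 of the 7 were called, miR-194-5p and miR-215-5p higher and miR-122-5p and miR-375-3p lower, against 37.0% of all miRNAs in the same fit. At an adjusted p under 0.05 there were 3 of the 7 and 29.1% of all miRNAs, and the groups did not overlap for 6 of the 7 and 48.9% of all miRNAs. Without saline replicate 3 or without morphine replicate 1, none of the 7 was called by edgeR at the unadjusted criteria, against 16.4% and 13.3% of all miRNAs in the same fits. The spread within the saline group was larger than within the morphine group for miR-192-5p, with a coefficient of variation of 90.6% against 12.9%, and for miR-215-5p, with 95.2% against 17.4%. It was the other way round for miR-205-5p (71.7% and 121%) and miR-375-3p (30.7% and 48.1%).

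The miRNAs whose profiles over the 6 libraries were most like those of the 7 were found by the root mean square difference of centred log2(CPM + 1). For miR-192-5p they were miR-362-5p (0.135), miR-708-5p (0.148) and miR-544-5p (0.157), and for miR-194-5p they were miR-181b-1-3p (0.212), miR-148b-3p (0.221) and miR-301a-5p (0.223). miR-215-5p was closest to miR-135b-3p (0.106), miR-203-3p to miR-15a-5p (0.197), miR-205-5p to miR-23b-3p (0.195) and miR-375-3p to miR-409-3p (0.225). miR-122-5p had no close match apart from miR-122b-3p, its nearest being miR-501-3p at 0.595. Among the 7 themselves, the closest profiles were those of miR-192-5p and miR-203-3p, at 0.279. miR-194-5p was 0.809 from miR-192-5p, its partner in one cluster, and 0.4685 from miR-215-5p, its partner in the other. These distances are over 6 libraries that differ in depth and include saline replicate 2, and they are given as a description. Adding 1 CPM also flattens profiles at low levels, so the small distances of miR-215-5p and miR-205-5p do not show a closer likeness. Their median distances to the miRNAs compared were 0.695 and 0.691, against 0.797 to 1.21 for the others of the 7.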

How the data were processed

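Small RNA libraries were made from 3 μg of NAc total RNA. The authors trimmed and quality-filtered the reads, used Bowtie to discard repeats and other classes of non-coding RNA, and matched the remainder to miRBase. The deposited values are unnormalized counts for each mature miRNA and, beside them, deposited TPM values that equal the count scaled to its library's total. The genome build, miRBase release and treatment of reads with several matches are not given in the sources used here. All 12 deposited value columns matched a library, and 0 were left unused.

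The counts of all 1364 miRNAs, each detected in some library, were normalized with TMM and tested with edgeR 4.0.16 (quasi-likelihood, no covariate) in R 4.3.3. Standard errors and 95% intervals came from the fitted model with the moderated dispersion. Ratios within a library had 0.5 added to each count and were compared with an exact permutation test. The 95% intervals of fold changes thus include the spread between libraries, whereas the exact Poisson intervals and the 3-count floor cover counting error only. Named were the 7 miRNAs, the other products of their hairpins, the 3 nearest profiles of each (the nearest only for some) among miRNAs whose total reached 10 counts, and lists of tissue-enriched miRNAs. miR-122b-3p and the ratios with miR-203-3p were added after values were seen. Of the 7 ratios, only those of miR-194-5p and of miR-215-5p to miR-192-5p were planned. The members and lists were chosen with earlier results of these data known. Alternatives included DESeq2 1.42.0.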

Additional observations from a re-analysis of the deposited data

How the results depend on the processing

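Up to 18 alternatives were tried. The number of the 7 miRNAs called was 2 with all libraries, 1 with library totals, upper quartile scaling, the edgeR exact test or a minimum of 10 counts in total, 0 with the replicate block, and 0 to 4 with a library left out. At an adjusted p under 0.05 it was 0 of the 7 in the reported fit, 1 with library totals, upper quartile scaling, DESeq2 or miRBase miRNAs only, and 0 to 3 with a library left out. Those with groups that did not overlap numbered 1 after thinning to the smallest total, and 2 to 6 with a library left out. All DEmiRNAs numbered 176 to 492, and those at an adjusted p under 0.05, 71 of 1364 in the reported fit, came to 160 with library totals, 153 with upper quartile scaling, 126 with DESeq2, 28 with a minimum of 10 counts, 107 after thinning, 110 with miRBase miRNAs only, 32 with the replicate block, 32 without miRNAs of repeated counts (an alternative chosen after seeing the data), and 0 to 386 with a library left out. Of all calls, 50.0% were higher in the morphine group, and 34.9% with library totals, 37.7% with upper quartile scaling.

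The call of miR-194-5p was lost in 9 of 18 alternatives. The log2 fold changes were 1.03 for library totals, 1.01 for upper quartile scaling and 1.20 for the exact test. They were 1.14 for a minimum of 10 counts and 1.36 for the replicate block. Without saline replicate 1, saline replicate 3, morphine replicate 1 or morphine replicate 3 they were 1.02 to 1.32. The call was kept without saline replicate 2, at 1.90. The call of miR-122-5p was lost with the replicate block (-1.51), without saline replicate 3 (-0.59) and without morphine replicate 1 (-2.07). Over all fits with a library left out, its log2 fold change ran from -2.58 to -0.59. miR-203-3p was reversed to 0.014 with the replicate block and to 0.65 without saline replicate 2, and lay between -0.54 and 0.65 with a library left out. miR-192-5p was reversed to 0.50 without saline replicate 2 (-0.84 to 0.50). miR-215-5p (0.45 to 1.92) and miR-375-3p (-1.12 to -0.32) were called only without saline replicate 2. miR-205-5p was called in none of its 17 alternatives and ranged from -2.26 without morphine replicate 1 to -0.16 without saline replicate 3, with -1.48 after thinning and -1.10 with library totals. miR-192-5p was at -0.16 with the replicate block and miR-375-3p at -1.14 with library totals. The cause was not tested. The differences of the ratios kept their direction in all 9 alternatives, from 1.34 to 1.74 for miR-194-5p to miR-192-5p and from 1.03 to 1.55 for miR-215-5p to miR-192-5p. As paired differences (replicate block) they were 1.54 and 1.27 with an exact sign-flip p of 0.25, the smallest 3 pairs allow.

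The deviations of same-numbered libraries from their group means had correlations of -0.23, -0.28 and 0.14. With 3 libraries per group, these cannot decide whether the numbers pair the libraries. With filterByExpr, 6 of the 7 were tested, and miR-205-5p gave no value. Counts were lowest, and counting error largest, for miR-205-5p and miR-215-5p.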

Other observations

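Further lists of cell-enriched miRNAs were summed in each library to check the tissue. The 4 neuronal miRNAs came to 127617 to 272040 CPM in the saline group and 177125 to 205454 CPM in the morphine group, with 1 called lower, miR-124-3p. The 3 oligodendrocyte miRNAs came to 1820 to 1903 CPM and 1572 to 1963 CPM, mostly miR-219a-2-3p, with 1 called lower, miR-219a-5p. miR-219a-5p was at 2.75, 63.9 and 2.41 CPM in saline replicates 1, 2 and 3. In the morphine group it was at 0.471 to 3.98 CPM. Of all miRNAs, 9.68% were called lower. The 4 muscle miRNAs, of which 1 was called lower, ranged from 72.9 to 971 CPM in the saline group and from 445 to 555 CPM in the morphine group, and the highest sum, in saline replicate 2, was mostly miR-1a-3p (940.0 CPM), while miR-206-3p was highest in saline replicate 1 (71.6 CPM). The 5 miRNAs of choroid plexus and ciliated cells ranged from 1948 to 2768 CPM and from 941 to 994 CPM, with 1 called lower, miR-204-5p, which was highest in saline replicate 3 (2576 CPM). Of the other 4, miR-34c-5p, miR-34b-5p and miR-449a-5p were highest in saline replicate 2 and miR-211-5p in saline replicate 1. The part of these cells in the levels of the 7 miRNAs was not tested.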
